A study of Mus musculus with 106 samples.

Results

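H3K27ac and H3K4me3, marks on histone H3, were read at 10 genes that encode transcription factors of blood stem and progenitor cells: Meis1, Hlf, Mecom, Prdm16, Etv6, Gfi1, Gfi1b, Myb, Mycn and Ikzf2. They were chosen by name and by no threshold on a measured value, though with earlier results of these data known, from the 21938 protein-coding genes of the mouse annotation, and all 10 were found. H3K27ac and H3K4me3 were profiled by chromatin immunoprecipitation and sequencing to ask whether diabetes leaves a lasting mark on the chromatin of bone marrow cells and of macrophages grown from them. The mice were wild-type C57BL/6J animals, 12 to 14 weeks old when assigned to the control or the diabetic group. Diabetic mice had been given streptozotocin, a toxin of the insulin-producing beta cells, at 42 to 45 mg/kg a day for 5 days, and were used 6 weeks after the last injection if blood glucose was above 13.9 mmol/L. Control mice were not made diabetic.

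The cells labelled HSC were whole bone marrow depleted of cells carrying CD3, CD4, B220, Ter119 or Gr1. They were thus a mixture of stem cells and progenitors and not sorted stem cells. Bone marrow-derived macrophages (BMDM) were grown for 7 days in 5 mmol/L glucose with L929-conditioned medium, a source of macrophage growth factor, so that cells of diabetic mice had left high glucose behind. They then stayed unstimulated or received 100 ng/mL lipopolysaccharide with 10 ng/mL interferon-gamma (LPS+IFNg) for 16 hours, a stimulus that drives an inflammatory state. Each mark was measured in 6 libraries of each of control and diabetic HSC, unstimulated BMDM and LPS+IFNg BMDM, except that diabetic unstimulated BMDM had 5. The study's methods take individual animals as replicates, and the labels number the libraries without naming the mouse of each.

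H3K27ac lies on active promoters and enhancers, and H3K4me3 on promoters that are active or ready for use. Blood stem cells depend on a network of transcription factors that sustains self-renewal and delays maturation. Meis1 (a homeobox protein) and Hlf (a leucine zipper protein) maintain stem cells, Mecom and Prdm16 are related zinc finger proteins needed by long-term stem cells, and Etv6 is an ETS family repressor needed by stem cells of adult marrow. Gfi1 and Gfi1b are related zinc finger repressors, Gfi1 acting in the neutrophil and lymphoid lineages and Gfi1b in the red cell and platelet lineages. Myb and Mycn support the proliferation of progenitors, and Ikzf2 encodes Helios, a protein of the Ikaros family.

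The peak lists differed in length. H3K27ac lists held 51162 to 139452 (median 125766.5) peaks in HSC and 54313 to 175991 (median 111095) in unstimulated BMDM, and H3K4me3 lists 13730 to 145750 (median 59726.5) in HSC and 66146 to 212718 (median 131406) in unstimulated BMDM. The lists hold no read counts, so the depth of each library is unknown. No 2 libraries were identical. Some control BMDM libraries went against their stimulation label for H3K27ac. Over the 80 promoters that were stronger and the 174 that were weaker in diabetic LPS+IFNg than in diabetic unstimulated BMDM, the difference in mean promoter score was 1.55 and 1.40 in control unstimulated replicates 5 and 6, against -0.78 to 0.01 in replicates 1 to 4. It was -0.38 in control LPS+IFNg replicate 5, against 0.86 to 2.12 in the other 5 control LPS+IFNg libraries. For H3K4me3 the difference, over 17 stronger and 33 weaker promoters chosen in the same way, overlapped between the labels. It was -0.64 to 1.06 in control LPS+IFNg and -0.63 to 0.12 in control unstimulated libraries. The diabetic libraries were used to choose these promoters, so their own labels could not be checked in this way. No library was moved to another group.

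Each gene was described in each list in 2 ways. The promoter rank is the place of the strongest peak within 1 kb of any start site of the gene when the peaks of the list are ordered by their −log10 p, with 1 for the strongest. For tests it was turned into a score, log2 of 10000 over the rank, which is 0 for a promoter outside the 10000 strongest peaks. The relative locus coverage is the share of the gene body with 20 kb flanks that lay under peaks, divided by the share of the genome under peaks in the same list, so that 1 is the genome average. It was tested as log2 of the value plus 0.25, which understates differences of low values. A difference between cell types or of stimulation is the mean of the difference among control and that among diabetic libraries, weighted equally. In these mixed cells, fewer cells with a mark and less of the mark per cell cannot be told apart.

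The loci of the stem and progenitor factors were more densely covered by H3K27ac in HSC than in unstimulated BMDM. Coverage was higher in HSC at 8 of the 10 genes and lower at 0 by the exact permutation test within disease groups, with Benjamini-Hochberg adjustment over all genes. Mecom and Prdm16 did not pass. Over all genes 42.8% were called, in both directions, so that a call was common. The median log2 difference was 0.96 over the 10 genes and 0.00 over all genes. Without control unstimulated BMDM replicates 5 and 6, which went against their label, the number called was again 8, where 43.0% of all genes were called.

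**Figure D1:**
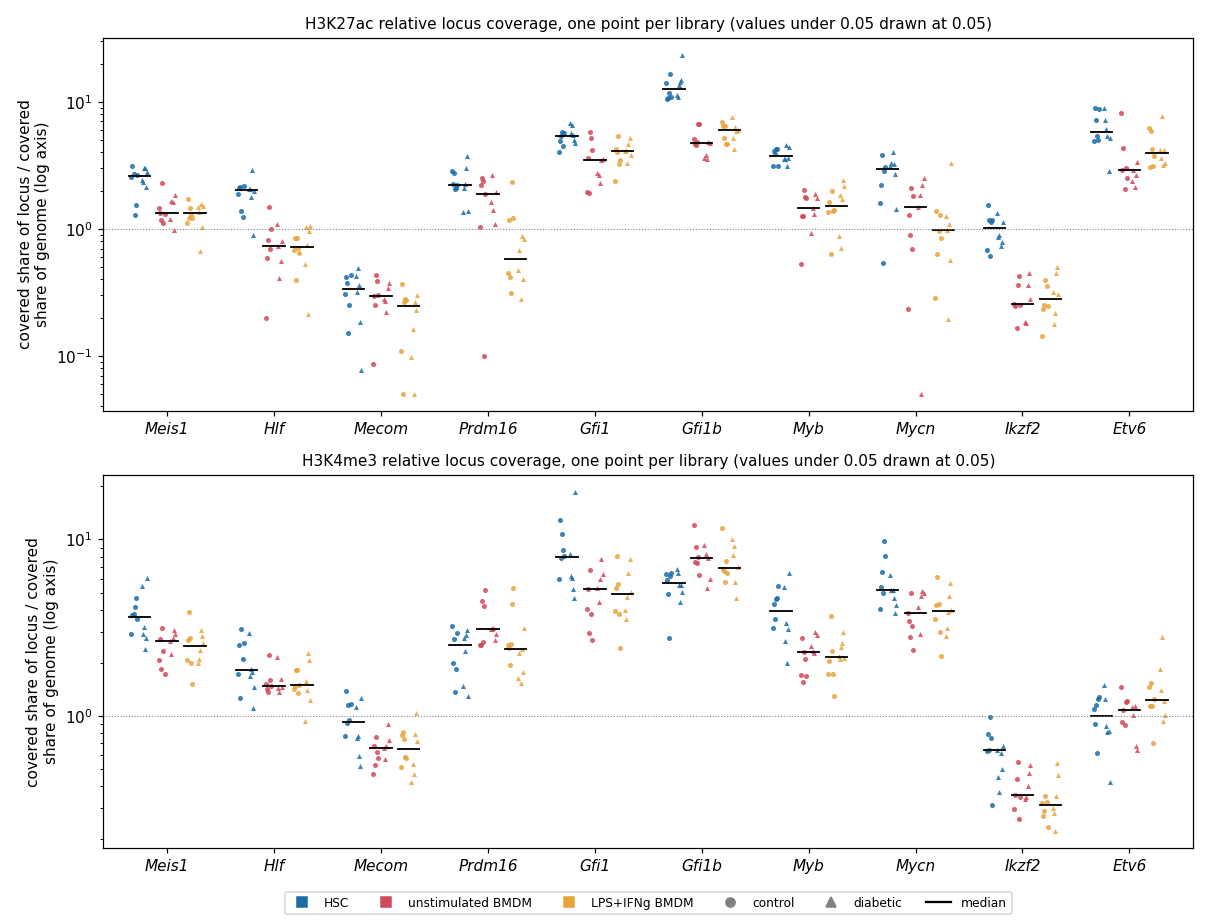
Relative locus coverage of H3K27ac (top) and H3K4me3 (bottom) at the 10 genes on a log axis, where 1 (dotted) is the genome average. Points are libraries (circles control, triangles diabetic) and bars are medians over 12 HSC, 11 unstimulated BMDM and 12 LPS+IFNg BMDM libraries. For H3K27ac, all HSC points of Gfi1b, Myb and Ikzf2 lie above all their unstimulated BMDM points.

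Gfi1b (chr2:28609450-28621982, GRCm38) had the densest H3K27ac of the 10 loci. Its relative coverage was 10.6 to 23.5 (median 12.6) in the 12 HSC libraries, 3.53 to 6.73 (median 4.71) in the 11 unstimulated BMDM libraries and 4.28 to 7.53 (median 5.97) in the 12 LPS+IFNg BMDM libraries. Every HSC library lay above every BMDM library. The log2 difference between HSC and unstimulated BMDM was 1.45 (means 3.75 ± 0.34, SD, n = 12, against 2.31 ± 0.29, n = 11, exact permutation test, adjusted p = 4.18e-05). The flank of Gfi1b reaches the start of the neighbouring gene Tsc1, and over the gene body alone the log2 difference was 2.8 (exact permutation test, adjusted p = 7.01e-05).

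Myb and Ikzf2 also showed no overlap between HSC and unstimulated BMDM. The share of all genes without overlap was not counted, so its absence here and at Gfi1b is a description only. Coverage of Myb (chr10:21124935-21160984) was 3.12 to 4.57 (median 3.77) in HSC and 0.530 to 2.01 (median 1.45) in unstimulated BMDM. The log2 difference at Myb was 1.3 (means 2.01 ± 0.19, SD, n = 12, against 0.71 ± 0.45, n = 11, exact permutation test, adjusted p = 4.18e-05). Coverage of Ikzf2 (chr1:69531214-69687245) was 0.609 to 1.55 (median 1.01) in HSC, about the genome average, and 0.167 to 0.450 (median 0.256) in unstimulated BMDM, below it in every library. The log2 difference at Ikzf2 was 1.21 (means 0.29 ± 0.33, SD, n = 12, against -0.92 ± 0.26, n = 11, exact permutation test, adjusted p = 4.18e-05). In LPS+IFNg BMDM the medians were 1.51 at Myb and 0.279 at Ikzf2, near those of unstimulated BMDM.

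Of the stem cell maintenance factors, Hlf, Etv6 and Meis1 had more H3K27ac in HSC, with ranges that overlapped those of BMDM. Coverage of Hlf (chr11:90336536-90390895) was 0.899 to 2.92 (median 2.02) in HSC and 0.199 to 1.48 (median 0.731) in unstimulated BMDM, a log2 difference of 1.12 (means 1.05 ± 0.39, SD, n = 12, against -0.07 ± 0.52, n = 11, exact permutation test, adjusted p = 0.000256). Coverage of Etv6 (chr6:134035700-134270158) was 2.83 to 8.90 (median 5.76) in HSC and 2.07 to 8.14 (median 2.90) in unstimulated BMDM, a log2 difference of 0.94 (means 2.65 ± 0.46, SD, n = 12, against 1.73 ± 0.52, n = 11, exact permutation test, adjusted p = 0.00183). Coverage of Meis1 (chr11:18879817-19018985) was 1.27 to 3.12 (median 2.60) in HSC and 0.976 to 2.29 (median 1.33) in unstimulated BMDM, a log2 difference of 0.67 (means 1.41 ± 0.35, SD, n = 12, against 0.74 ± 0.31, n = 11, exact permutation test, adjusted p = 0.00134).

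The related genes Mecom and Prdm16 did not pass. Mecom (chr3:29951296-30548008) lay below the genome average in every library, at 0.0775 to 0.489 (median 0.339) in HSC and 0.0868 to 0.434 (median 0.294) in unstimulated BMDM, a log2 difference of 0.04 (means -0.86 ± 0.36, SD, n = 12, against -0.90 ± 0.27, n = 11, exact permutation test, adjusted p = 0.914). Coverage of Prdm16 (chr4:154316125-154636873) was 1.36 to 3.72 (median 2.23) in HSC and 0.10 to 2.63 (median 1.87) in unstimulated BMDM, a log2 difference of 0.51 (means 1.33 ± 0.38, SD, n = 12, against 0.80 ± 0.86, n = 11, exact permutation test, adjusted p = 0.107). With each list limited to its 20000 strongest peaks 9 of the 10 genes were called, where 27.7% of all genes were. Mecom and Prdm16 then passed, with log2 differences of 0.80 at Mecom (exact permutation test, adjusted p = 0.0137) and 1.09 at Prdm16 (adjusted p = 0.000501), and Mycn did not, with 1.94 (adjusted p = 0.0794).

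Gfi1 and Mycn rose in HSC. Coverage of Gfi1 (chr5:107716657-107726036) was 4.02 to 6.81 (median 5.42) in HSC and 1.90 to 5.75 (median 3.47) in unstimulated BMDM, a log2 difference of 0.71 (means 2.48 ± 0.21, SD, n = 12, against 1.78 ± 0.49, n = 11, exact permutation test, adjusted p = 0.00134). Coverage of Mycn (chr12:12936093-12941914) was 0.536 to 4.03 (median 2.98) in HSC and 0 to 2.50 (median 1.48) in unstimulated BMDM, a log2 difference of 0.99 (means 1.42 ± 0.69, SD, n = 12, against 0.42 ± 1.09, n = 11, exact permutation test, adjusted p = 0.0260). The call of Mycn was lost without diabetic unstimulated BMDM replicate 4 or without control HSC replicate 3, where the adjusted p reached 0.0521.

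Ordered by median coverage in HSC, the loci stood as Gfi1b, Etv6, Gfi1, Myb, Mycn, Meis1, Prdm16, Hlf, Ikzf2 and Mecom. The ranges of neighbours in that order overlapped except between Gfi1b and Etv6 and between Ikzf2 and Mecom. In unstimulated BMDM Gfi1b again had the highest median and Ikzf2 had the lowest. With their flanks the loci differ in length, from 45.8 kb at Mycn and 52.5 kb at Gfi1b to 636.7 kb at Mecom. The part of locus length in this order was not tested.

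At the promoters themselves H3K27ac gave fewer calls. By promoter rank, 2 of the 10 genes were higher in HSC and 0 lower, where 13.0% of all genes were called. The Myb promoter ranked 3955 to 9429 (median 6217) in HSC and 10455 to 74143 (median 16835) in unstimulated BMDM, so it was among the 10000 strongest peaks in 12 of 12 HSC and 0 of 11 unstimulated BMDM libraries. The score difference at Myb was 0.71 (means 0.71 ± 0.32, SD, n = 12, against 0.00 in every library, n = 11, exact permutation test, adjusted p = 0.000302). The Ikzf2 promoter ranked 3903 to 10387 (median 5297) in HSC and 5487 to 57839 (median 8843) in unstimulated BMDM, a score difference of 0.67 (means 0.90 ± 0.41, SD, n = 12, against 0.22 ± 0.26, n = 11, exact permutation test, adjusted p = 0.00236).

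Most other promoters lay near rank 10000 or beyond it. With the score reaching to rank 20000, 6 genes were called, all higher in HSC (Hlf, Mecom, Gfi1 and Mycn beside Myb and Ikzf2), where 18.1% of all genes were called. The median rank in HSC and unstimulated BMDM was 10351.5 and 37354 for Hlf, 11034 and 23243 for Mecom, 9656 and 20798 for Gfi1, and 12672.5 and 24661 for Mycn. Gfi1b, the locus with the densest H3K27ac, had a weak promoter peak, at ranks of 9188 to 68656 (median 19094) in HSC and with a peak in 7 of 11 unstimulated BMDM libraries.

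Etv6 had the strongest H3K27ac promoter of the 10 genes in every cell type. It ranked 1680 to 5049 (median 2821) in HSC, 573 to 5799 (median 1393) in unstimulated BMDM and 69 to 2914 (median 1310) in LPS+IFNg BMDM. The score difference between HSC and unstimulated BMDM was -0.77 (means 1.81 ± 0.53, SD, n = 12, against 2.62 ± 1.07, n = 11, exact permutation test, adjusted p = 0.182), negative where the difference in coverage of the same gene was positive.

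**Figure D2:**
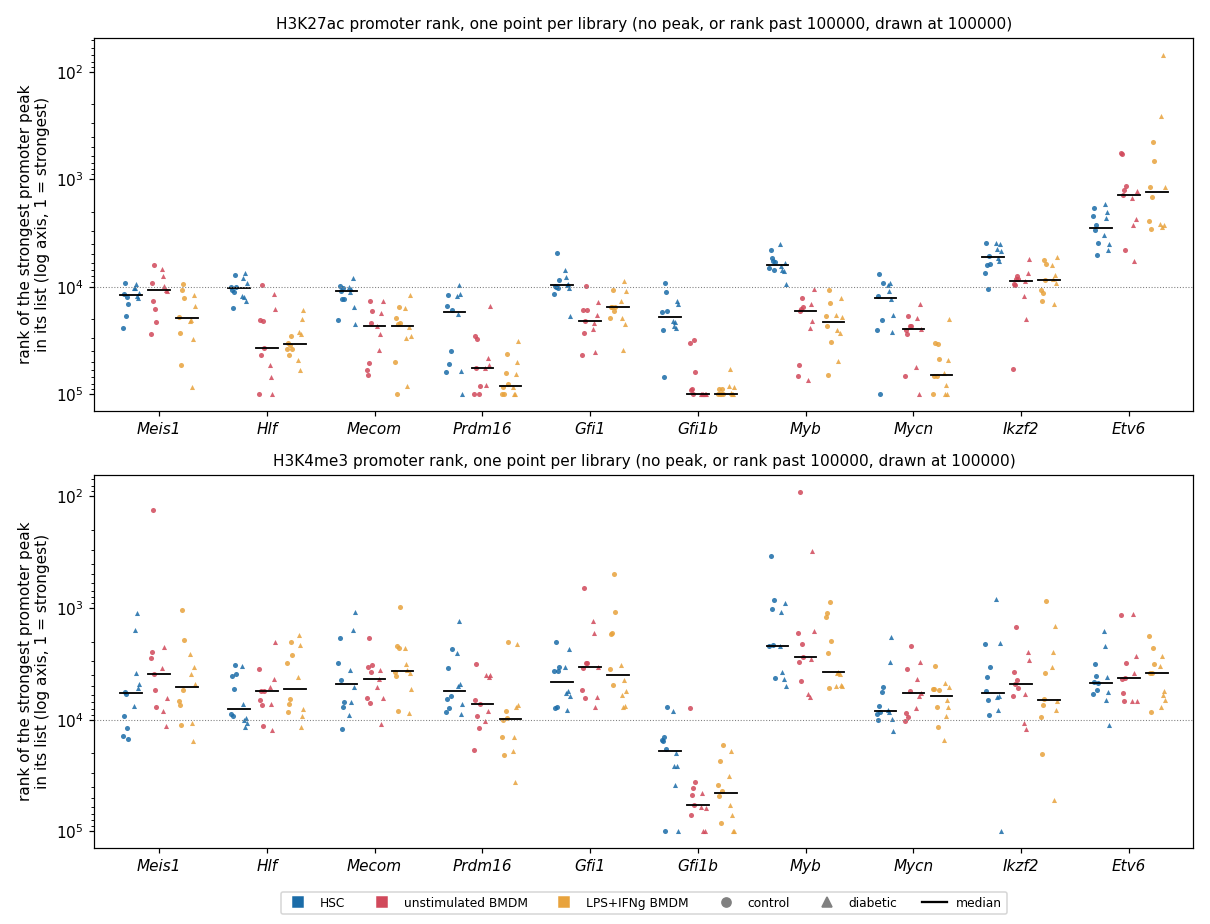
Rank of the strongest promoter peak in its list for H3K27ac (top) and H3K4me3 (bottom), on a log axis with strong promoters at the top. Points are libraries (circles control, triangles diabetic), bars are medians and the dotted line is rank 10000. All HSC points of Myb H3K27ac lie above that line and all its BMDM points below it, while the H3K4me3 ranks of HSC and unstimulated BMDM overlap at every gene.

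H3K4me3 promoter ranks overlapped between HSC and unstimulated BMDM at all 10 genes. The share of all genes with such overlap was not counted, so it is a description and no trait of these genes. By the exact permutation test 0 of the 10 were called and 0 had an unadjusted p under 0.05, where 3.24% of all genes were called, and limma called 0. Myb had the strongest median rank in both, with 341 to 5010 (median 2167.5) in HSC and 91 to 6321 (median 2723) in unstimulated BMDM. Its score difference was 0.04 (means 2.49 ± 1.2, SD, n = 12, against 2.48 ± 1.86, n = 11, exact permutation test, adjusted p = 1). Gfi1b had the weakest H3K4me3 promoter, among the 10000 strongest peaks in 2 of 12 HSC and 1 of 11 unstimulated BMDM libraries. The other 9 promoters were among them in 9 to 12 HSC and 8 to 11 unstimulated BMDM libraries. Peaks within that limit thus lay at Meis1, Hlf, Mecom, Prdm16, Myb and Mycn in most unstimulated BMDM libraries too. At Prdm16 they lay near the limit, with scores of 0.00 to 0.59 in control unstimulated BMDM apart from replicate 3.

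The coverage of H3K4me3 depended on how list length was treated. Relative coverage was called at 8 genes, higher in HSC at 6 (Meis1, Mecom, Gfi1, Myb, Mycn and Ikzf2) and lower at 2 (Gfi1b and Prdm16), where 30.5% of all genes were called. At Myb it was 1.99 to 6.44 (median 3.93) in HSC and 1.55 to 2.97 (median 2.29) in unstimulated BMDM, a log2 difference of 0.71 (means 2.04 ± 0.46, SD, n = 12, against 1.31 ± 0.29, n = 11, exact permutation test, adjusted p = 0.00572). At Gfi1b it was 2.77 to 6.8 (median 5.70) in HSC and 5.34 to 12.1 (median 7.80) in unstimulated BMDM, a log2 difference of -0.49 (means 2.50 ± 0.34, SD, n = 12, against 3.0 ± 0.32, n = 11, exact permutation test, adjusted p = 0.00731). With each list limited to its 20000 strongest peaks 0 of the 10 genes were called by the exact permutation test and 0 had an unadjusted p under 0.05, where 4.46% of all genes were called. In covered kb, not scaled to the list, the log2 difference was negative at all 10 genes, for example -0.30 at Myb and -0.53 at Meis1. There 7 genes were called, all lower in HSC (Meis1, Hlf, Mecom, Gfi1, Gfi1b, Prdm16 and Etv6), where 63.2% of all genes were called, so that Meis1, Mecom and Gfi1 were called in opposite directions by the 2 measures. Within control libraries 7 genes were called and within diabetic libraries 0, where 32.0% and 0% of all genes were called. The call of Prdm16 was lost without any 1 of 8 libraries, and those of Mecom and Gfi1 without diabetic unstimulated BMDM replicate 2. H3K4me3 lists were shorter in HSC, and the part of list length in these differences was not tested.

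**Figure D3:**
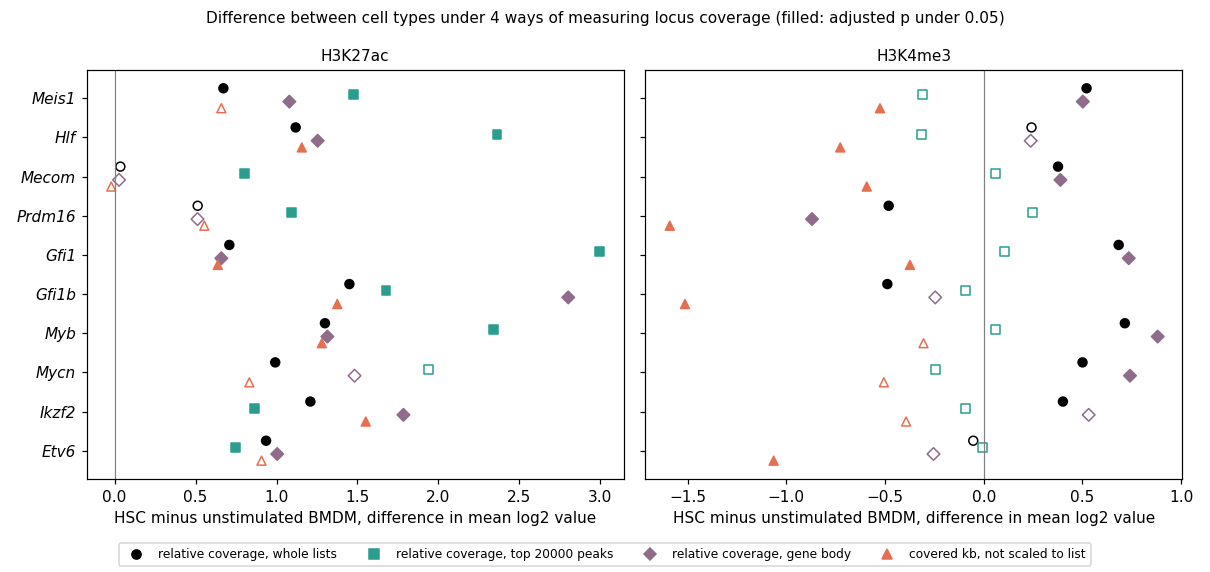
Difference between HSC and unstimulated BMDM in mean log2 locus coverage under 4 ways of measuring it, for H3K27ac (left) and H3K4me3 (right), filled where the adjusted p of the exact permutation test is under 0.05. H3K27ac differences lie to the right of 0 at all genes except Mecom in covered kb, whereas H3K4me3 differences change sides with the measure at most genes.

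To see where within the loci the cell types differed, bins of 500 bp were compared by how many lists held them, a list holding a bin when at least 250 bp of it lay under peaks. A bin was HSC-biased when at least 10 of the 12 HSC lists and at most 1 of the 11 unstimulated BMDM lists held it, and BMDM-biased when at least 9 BMDM lists and at most 1 HSC list held it. These limits were set after the data had been seen and give a description only. For H3K27ac, 720 bins at the 10 loci were held by any HSC or unstimulated BMDM list. Of these 11 (1.53%) were HSC-biased and 1 (0.139%) was BMDM-biased, against 0.435% and 0.518% in the genome. Of the HSC-biased bins 8 lay at Gfi1b and 1 each at Myb, Prdm16 and Ikzf2, while Meis1, Hlf, Gfi1, Mycn and Etv6, also called for coverage, held 0. For H3K4me3, 0 of 565 bins were HSC-biased, against 0.000698% in the genome. There 2 (0.354%) were BMDM-biased, 1 each at Gfi1b and Prdm16, below the 0.612% of the genome. In the genome 3 H3K4me3 bins were HSC-biased and 2628 BMDM-biased. H3K4me3 lists were shorter in HSC, and the part of list length in these counts was not tested.

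**Figure D4:**
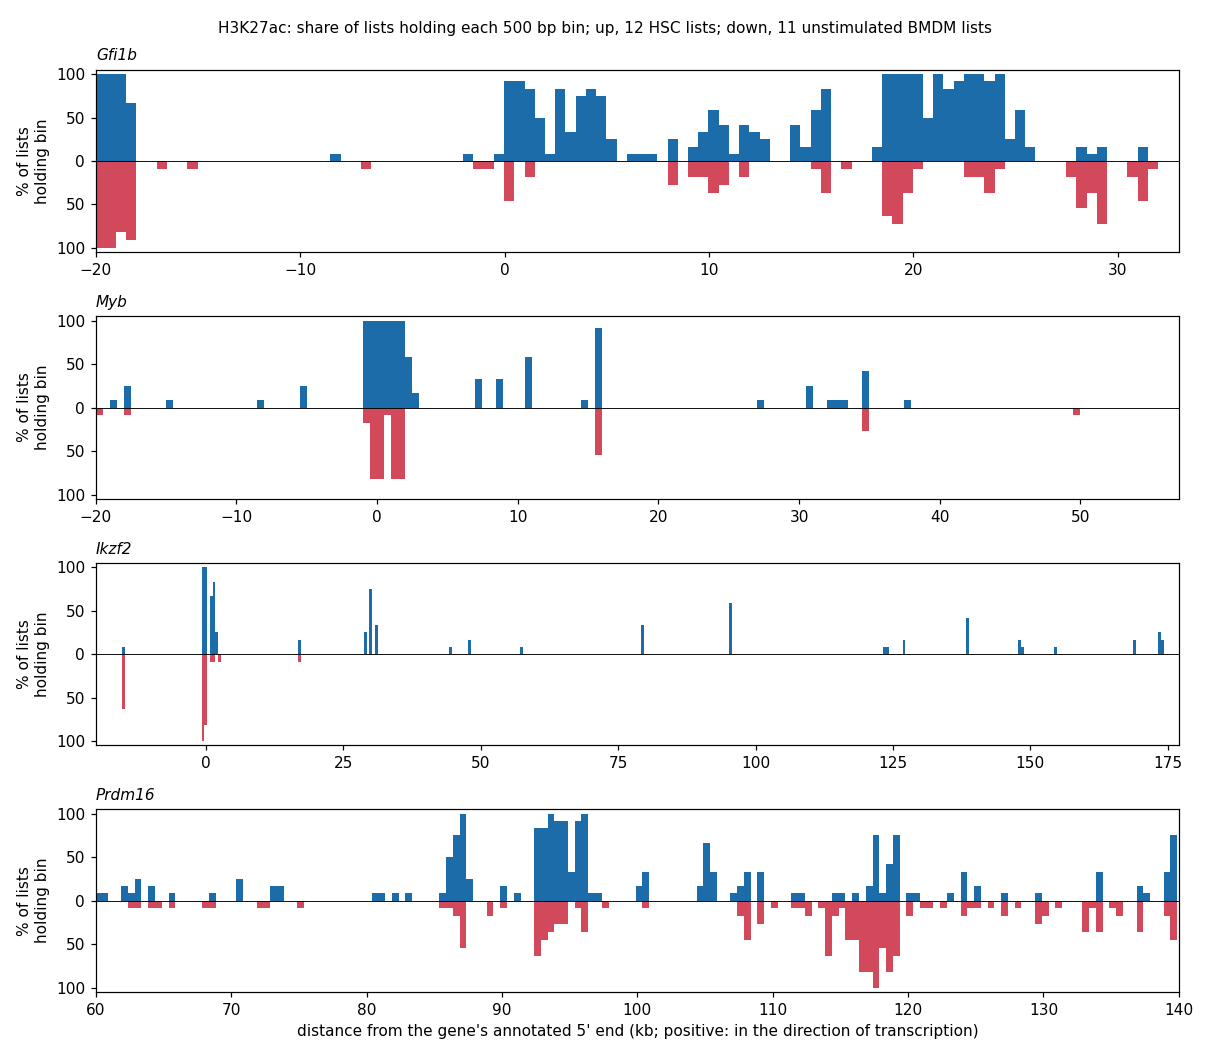
Share of the 12 HSC lists (upward) and of the 11 unstimulated BMDM lists (downward) that hold each 500 bp bin for H3K27ac, against distance in kb from the annotated 5′ end of Gfi1b, Myb, Ikzf2 and, for part of its locus, Prdm16. At Gfi1b the bins that most HSC lists and few BMDM lists hold lie within the gene and past its 3′ end, and at Prdm16 the BMDM bins are densest near 117 kb.

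At Gfi1b the HSC-biased bins formed an intronic group, 0.732 to 4.232 kb from the annotated 5′ end, and a group past the 3′ end, between genes. In the first intron chr2:28621001-28621500 was held by 11 HSC, 0 unstimulated BMDM and 3 LPS+IFNg BMDM lists. Its middle lay 695 bp from a start site of Gfi1b, inside the promoter window of 1 kb, so it is not separate from the promoter. Past the 3′ end chr2:28597501-28598000 was held by 12 HSC lists and 1 unstimulated BMDM list. In the first intron of Myb, chr10:21160001-21160500 was held by 12 HSC lists and 1 unstimulated BMDM list. Its middle lay 600 bp from a start site, so it too is inside the promoter window and not separate from the Myb promoter rank. At Prdm16 the cell types held different intronic bins, with chr4:154541001-154541500 held by 11 HSC lists and 1 unstimulated BMDM list, and chr4:154520001-154520500 by 0 HSC and 9 unstimulated BMDM lists. The BMDM-biased H3K4me3 bin of Gfi1b, chr2:28593501-28594000, was held by 0 HSC and 11 unstimulated BMDM lists, and lies farther past the 3′ end than the H3K27ac bins.

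The middle 300 bases of intervals named above are shown, from GRCm38.p6 as given by RefSeq, because most lists of one cell type and at most 1 list of the other held them. Capitals mark matches on either strand to the letters AGATAA of the GATA factor motif, TGTGGT of the RUNX motif, GGAAGT of the ETS motif, CAGATG of an E-box, TGACAG of the MEIS motif or AAATCA of the GFI1 motif, and matches may overlap.
Gfi1b first intron, chr2:28621101-28621400, plus strand: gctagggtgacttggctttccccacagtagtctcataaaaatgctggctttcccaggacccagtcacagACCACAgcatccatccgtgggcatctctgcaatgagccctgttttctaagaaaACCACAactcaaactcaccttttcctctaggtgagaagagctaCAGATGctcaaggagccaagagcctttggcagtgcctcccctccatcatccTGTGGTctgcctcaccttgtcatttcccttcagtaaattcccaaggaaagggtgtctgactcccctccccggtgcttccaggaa
Gfi1b past the 3′ end, chr2:28597601-28597900, plus strand: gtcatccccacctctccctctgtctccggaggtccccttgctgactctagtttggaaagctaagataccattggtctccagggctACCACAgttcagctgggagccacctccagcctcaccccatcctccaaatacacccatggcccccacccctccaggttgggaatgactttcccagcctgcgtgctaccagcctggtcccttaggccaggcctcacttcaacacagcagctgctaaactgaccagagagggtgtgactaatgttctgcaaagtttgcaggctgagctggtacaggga
Myb first intron, chr10:21160101-21160400, plus strand: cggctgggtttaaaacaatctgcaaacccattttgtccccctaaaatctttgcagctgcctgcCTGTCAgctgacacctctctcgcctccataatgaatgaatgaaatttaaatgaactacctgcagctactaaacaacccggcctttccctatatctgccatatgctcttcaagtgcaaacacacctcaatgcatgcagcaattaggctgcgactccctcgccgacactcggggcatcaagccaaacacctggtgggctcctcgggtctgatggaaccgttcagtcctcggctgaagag
Prdm16 intron, HSC-biased, chr4:154541101-154541400, plus strand: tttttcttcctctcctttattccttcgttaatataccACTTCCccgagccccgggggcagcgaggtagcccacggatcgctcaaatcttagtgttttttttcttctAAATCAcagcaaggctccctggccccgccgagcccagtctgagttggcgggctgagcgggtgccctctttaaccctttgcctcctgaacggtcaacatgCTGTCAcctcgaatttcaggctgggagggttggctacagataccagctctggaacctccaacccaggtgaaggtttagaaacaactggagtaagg
Prdm16 intron, BMDM-biased, chr4:154520101-154520400, plus strand: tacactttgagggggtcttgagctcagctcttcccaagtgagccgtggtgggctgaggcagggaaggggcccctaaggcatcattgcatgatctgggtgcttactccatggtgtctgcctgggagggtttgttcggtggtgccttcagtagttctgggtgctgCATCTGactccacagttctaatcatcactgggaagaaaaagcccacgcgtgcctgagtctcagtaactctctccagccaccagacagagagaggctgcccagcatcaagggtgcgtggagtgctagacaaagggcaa

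The Gfi1b first intron window held 3 RUNX matches and 1 E-box match and the window past the 3′ end 1 RUNX match. The Myb window held 1 MEIS match. The HSC-biased window of Prdm16 held 1 ETS, 1 MEIS and 1 GFI1 match, and the BMDM-biased one 1 E-box match. Among windows taken in the same way from all 1840 HSC-biased runs of the genome, 23.5% held the RUNX letters, 13.8% GATA, 22.2% ETS, 22.3% the E-box, 26.0% MEIS and 9.95% GFI1. Among those from 2294 BMDM-biased runs the shares were 18.7% for RUNX, 6.93% for GATA, 16.1% for ETS, 21.0% for the E-box, 23.9% for MEIS and 10.3% for GFI1. A match describes the letters and is no evidence of a bound factor.

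Promoter sequences were found in RefSeq for 9 of the 10 genes, all but Ikzf2. The 250 bases before the start are shown for Gfi1b and Myb, the genes with the weakest and the strongest H3K4me3 promoter, with matches to the same motifs in capitals.
Gfi1b promoter, chr2:28621983-28622232, minus strand: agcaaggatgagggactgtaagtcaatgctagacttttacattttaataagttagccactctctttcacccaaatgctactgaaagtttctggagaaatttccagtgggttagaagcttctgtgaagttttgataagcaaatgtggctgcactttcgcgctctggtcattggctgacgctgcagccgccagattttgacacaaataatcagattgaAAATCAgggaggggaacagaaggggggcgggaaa
Myb promoter, chr10:21160985-21161234, minus strand: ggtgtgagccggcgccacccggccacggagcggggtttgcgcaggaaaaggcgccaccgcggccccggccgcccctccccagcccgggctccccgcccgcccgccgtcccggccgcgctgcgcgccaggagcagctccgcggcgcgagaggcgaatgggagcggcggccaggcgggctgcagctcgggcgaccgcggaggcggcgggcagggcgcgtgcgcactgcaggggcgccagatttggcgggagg
The Gfi1b stretch held 5 CpG dinucleotides and a GC content of 44.4%, and 44.4% of 32841 promoters held fewer CpG. The Myb stretch held 40 with a GC content of 81.2%, and 98.7% held fewer. The listed promoters of the other genes held 8 to 26. The Gfi1b stretch held 1 GFI1 match and the Myb stretch matched none of the motifs, where 12.4% of all promoters held the GFI1 letters, 9.99% GATA, 14.0% RUNX, 19.7% ETS, 14.4% the E-box and 15.9% MEIS.

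Across the 35 H3K27ac libraries the coverage of the 3 genes without overlap varied together, with Pearson's r of 0.84 for Myb with Ikzf2, 0.82 for Gfi1b with Ikzf2 and 0.81 for Gfi1b with Myb, while Mecom with Etv6 gave -0.15. The libraries share cell types, so r is a description. Among genes over 1 Mb away, the coverage most like that of Gfi1b was found at Ormdl3 (r = 0.94), most like that of Prdm16 at Macrod1 (0.93), of Ikzf2 at Pip5k1b (0.92), of Myb at Tfrc (0.92) and of Etv6 at Foxp1 (0.91). For Mecom it was Efnb2 (0.90), for Meis1 Sh2b1 (0.88), for Mycn Gm3194 (0.87), for Hlf Lrrc1 (0.87) and for Gfi1 Hes1 (0.79). Tfrc encodes the transferrin receptor, which brings iron into cells, and its median coverage was 3.93 in HSC and 1.49 in unstimulated BMDM.

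A list of 25 other stem and progenitor regulators was read in the same way. H3K27ac coverage was higher in HSC at 16, lower at 1 (Hmga2) and not called at 8, where 42.8% of all genes were called (4501 genes higher and 4889 lower), with a median log2 difference of 0.64 against 0.00 over all genes. The log2 difference was 1.99 at Bcl11a, a repressor of fetal globin genes (exact permutation test, adjusted p = 4.18e-05), 1.97 at Erg, an ETS factor of stem cells (adjusted p = 6.24e-05), and 1.70 at Lmo2, a bridging protein of stem cell factor complexes (adjusted p = 4.18e-05). By H3K27ac promoter rank 6 were higher in HSC (Gata2, Bcl11a, Sox4, Ikzf1, Nfe2 and Satb1) and 4 lower (Runx1, Lmo4, Zbtb16 and Hmga2), where 13.0% of all genes were called (1622 genes higher and 1222 lower). By H3K4me3 promoter rank 1 was higher and 1 lower, where 3.24% of all genes were called. By H3K4me3 relative coverage 14 were higher and 1 lower, where 30.5% of all genes were called (3976 genes higher and 2714 lower). This measure gave 0 calls at Meis1, Hlf and the other 8 factors with the 20000 strongest peaks or in diabetic libraries alone. Of all genes 4.46% and 0% were called under those settings, and the list was not recomputed there.

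Marker genes were read to check the labelled cells, in a comparison where 42.8% of all genes were called, so that a share near or below it is no result about a list. H3K27ac coverage was lower in HSC at 5 of 9 macrophage genes and higher at 0, with log2 differences of -1.21 at Mrc1 and -0.82 at Csf1r. It was higher in HSC at 5 of 8 stem and progenitor genes, with 1.74 at Kit and 1.26 at Flt3. Procr, a receptor on stem cells, lay the other way, at -0.50 (exact permutation test, adjusted p = 0.0570). By H3K27ac promoter rank Flt3 was higher in HSC and Procr lower, with score differences of 0.14 (adjusted p = 0.00684) and -0.29 (adjusted p = 0.0310). H3K4me3 coverage of Ly6a, which encodes Sca-1, was lower in HSC, by a log2 difference of -1.10 (adjusted p = 0.0139). H3K27ac coverage was also higher at 6 of 7 erythroid genes, 4 of 4 T and NK cell genes, 2 of 6 neutrophil genes, 1 of 4 B cell genes and 1 of 4 megakaryocyte genes, and lower at 0 of these. The part of erythroid and T or NK cells in the H3K27ac of Gfi1b, Ikzf2 and the other factors was not tested.

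No difference between diabetic and control libraries passed adjustment at these genes. Over both marks, both measures and the 3 cell states there were 120 tests of a gene, of which 5 had an unadjusted p under 0.05 by the exact permutation test. With 6 libraries against 6 the smallest possible p is 0.00216, so that an adjusted p under 0.05 would need 950 genes at that value, and 0% of all genes were called in each comparison. limma called 0 of the 10 genes as well. Unadjusted, the share of all genes under 0.05 in HSC, unstimulated BMDM and LPS+IFNg BMDM was 1.37%, 1.69% and 1.35% for the H3K27ac promoter rank, 8.76%, 2.68% and 3.08% for H3K27ac coverage, 1.51%, 1.75% and 2.10% for the H3K4me3 promoter rank, and 4.81%, 11.6% and 4.51% for H3K4me3 coverage.

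In HSC the gene with an unadjusted p under 0.05 was Meis1. Its H3K4me3 promoter ranked 1096 to 7524 (median 4332) in the 6 diabetic and 5693 to 15028 (median 10538) in the 6 control libraries, so that diabetic libraries were mostly the stronger ones and the ranges overlapped. The score difference was 1.33 (means 1.61 ± 1.08, SD, n = 6, against 0.28 ± 0.39, n = 6, exact permutation test, unadjusted p = 0.0108, adjusted p = 1). In unstimulated BMDM the median rank was 6381 in diabetic and 3350 in control libraries, the opposite order, with control replicate 3 far from the others at rank 131.

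In BMDM such values lay at Gfi1b, Gfi1 and Myb. H3K27ac coverage of Gfi1b in unstimulated BMDM was 3.62, 3.79, 3.53, 4.78 and 4.71 in the diabetic libraries and 4.60 to 6.73 (median 4.93) in the control libraries, a log2 difference of -0.38 (means 2.10 ± 0.20, SD, n = 5, against 2.49 ± 0.25, n = 6, exact permutation test, unadjusted p = 0.0325, adjusted p = 1). Without the control libraries that went against their label it was -0.23 (exact permutation test, unadjusted p = 0.103). In LPS+IFNg BMDM the H3K4me3 promoter of Gfi1 ranked 3214 to 7749 (median 5767) in diabetic and 500 to 4922 (median 1700) in control libraries, a score difference of -1.67 (means 0.86 ± 0.49, SD, n = 6, against 2.53 ± 1.18, n = 6, exact permutation test, unadjusted p = 0.0108, adjusted p = 1). That of Myb ranked 3729 to 5004 (median 4427) in diabetic and 889 to 5194 (median 1577.5) in control libraries, a score difference of -1.3 (means 1.2 ± 0.21, SD, n = 6, against 2.50 ± 0.95, n = 6, exact permutation test, unadjusted p = 0.0152, adjusted p = 1). Both promoters were weaker in most diabetic LPS+IFNg libraries, with overlap.

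H3K4me3 coverage of Myb in unstimulated BMDM was 2.49, 2.33, 2.27, 2.97 and 2.87 in diabetic and 1.55 to 2.75 (median 1.90) in control libraries, a log2 difference of 0.34 (means 1.5 ± 0.16, SD, n = 5, against 1.16 ± 0.28, n = 6, exact permutation test, unadjusted p = 0.0454, adjusted p = 0.421). In covered kb the log2 difference was -0.32, of the opposite sign. In that unscaled measure 8 of the 10 genes had an unadjusted p under 0.05 between diabetic and control unstimulated BMDM, against 1 in relative coverage, and 0 passed adjustment. Over all genes 36.5% had one, against 11.6%.

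Whether the disease difference was itself different in HSC and in unstimulated BMDM was asked in 40 tests of a gene, of which 4 had an unadjusted p under 0.05 and 0 passed adjustment by the exact permutation test. Over all genes 0% were called, and unadjusted the shares were 1.60% and 2.01% for the H3K27ac promoter rank and coverage, and 2.24% and 10.7% for those of H3K4me3. The 4 were the H3K4me3 promoter of Meis1, with 2.52 in score (exact permutation test, unadjusted p = 0.0158, adjusted p = 1), H3K27ac coverage of Gfi1b, with 0.60 (unadjusted p = 0.0181, adjusted p = 1), and H3K4me3 coverage of Mecom, with -0.45 (unadjusted p = 0.0450, adjusted p = 0.449), and of Mycn, with -0.68 (unadjusted p = 0.0277, adjusted p = 0.397). For Gfi1b the median H3K27ac coverage in HSC was 13.9 in diabetic and 11.2 in control libraries, the reverse of its order in unstimulated BMDM. The values of Mecom and Mycn turned positive in covered kb, at 0.29 and 0.23.

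**Figure D5:**
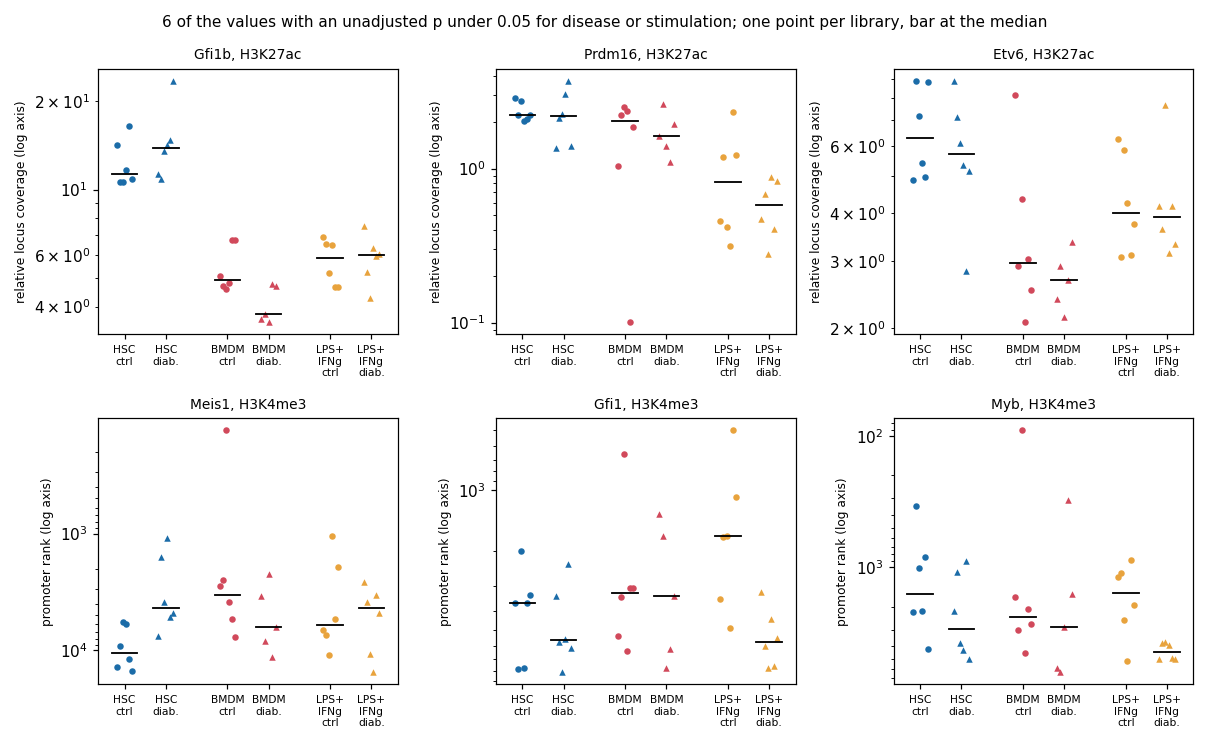
Values per library at 6 of the gene and mark pairs with an unadjusted p under 0.05 for disease or stimulation, as H3K27ac relative locus coverage (top) and H3K4me3 promoter rank (bottom, strong promoters at the top), on log axes, with bars at the median. Each diabetic LPS+IFNg library lies below each diabetic unstimulated library for Prdm16 H3K27ac, while diabetic and control libraries overlap in every cell state compared in the text.

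No difference between LPS+IFNg and unstimulated BMDM passed adjustment at these genes when all libraries were used. Of 40 tests of a gene, 4 had an unadjusted p under 0.05 by the exact permutation test and 0 passed adjustment, where 0% of all genes were called. Unadjusted, the shares of all genes were 6.68% for the H3K27ac promoter rank, 13.7% for its coverage, and 3.03% and 3.03% for the H3K4me3 promoter rank and coverage. H3K27ac coverage of Prdm16 in diabetic BMDM was 1.64, 2.63, 1.40, 1.10 and 1.94 without stimulation and 0.281 to 0.882 (median 0.579) with it, with no overlap, which was not counted over all genes. In control BMDM it was 0.10 to 2.52 (median 2.05) without stimulation and 0.312 to 2.33 (median 0.818) with it, and the lowest unstimulated value and the highest stimulated value both came from replicate 5, libraries that went against their label. The log2 difference over both disease groups was -0.92 (means -0.11 ± 0.68, SD, n = 12, against 0.80 ± 0.86, n = 11, exact permutation test, unadjusted p = 0.0112, adjusted p = 0.216).

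Without the 3 control libraries that went against their label, 2 of the 10 genes were called for H3K27ac coverage, where 6.16% of all genes were called. Prdm16 was lower after stimulation, with a log2 difference of -1.27 (exact permutation test, adjusted p = 0.00831), and Gfi1b was higher, with 0.39 (adjusted p = 0.0282). These libraries were left out for their H3K27ac promoters over other genes, in the same stimulation contrast, so these 2 calls are not independent of that choice. With all libraries the log2 difference at Gfi1b was 0.28 (means 2.58 ± 0.24, SD, n = 12, against 2.31 ± 0.29, n = 11, exact permutation test, unadjusted p = 0.0195, adjusted p = 0.258).

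Etv6 coverage was 3.07 to 7.68 (median 3.96) in LPS+IFNg BMDM, a log2 difference from unstimulated BMDM of 0.43 (means 2.15 ± 0.41, SD, n = 12, against 1.73 ± 0.52, n = 11, exact permutation test, unadjusted p = 0.0359, adjusted p = 0.325). The H3K27ac promoter of Meis1 ranked 9456 to 86732 (median 19706.5) after stimulation and 6210 to 27582 (median 10635) without it, a score difference of -0.15 (means 0.01 ± 0.02, SD, n = 12, against 0.15 ± 0.25, n = 11, exact permutation test, unadjusted p = 0.0248, adjusted p = 0.60).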

How the data were processed

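H3K27ac and H3K4me3 ChIP-seq peak lists of 70 of the 106 mouse samples were used, 35 for each mark. The other 36 samples are inputs and were not analysed here. The submitters' processing notes name Trim Galore 0.3.3, cutadapt 1.8, FastQC 0.11.3, Bowtie2 2.2.6, Picard (2.18.14 and 2.19.2), bedtools 2.19.1, MACS2 2.2.7.1 and the builds GRCm38 and mm10. The authors called peaks for each library on its own, and the deposited values of a peak are a score, a fold ratio over background at the summit, a −log10 p and a −log10 q. These values served only to order or filter peaks within a list. The 9511856 deposited summits gave 7828714 peaks once summits of the same interval were joined. The smallest −log10 q was 1.3, and 0 peaks ran past a chromosome end of GRCm38. Lists give no depth, so no interval for counting error was computed.

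Groups came from the labels. Promoters reached 1 kb either side of the 93513 start sites of GENCODE M21, and loci were gene bodies with 20 kb flanks. Differences in group means were tested, two-sided, by exact permutation of library labels, within disease groups where both entered, with Benjamini-Hochberg adjustment over 21938 protein-coding genes called when the adjusted p was under 0.05. The test was checked on simulated data. Alternatives were limma 3.58.1 in R 4.3.3, other rank limits, orders, windows, peak filters, gene filters and pseudocounts, the replicate number as a block, single disease groups and leaving out libraries. limma for disease and stimulation, and the disease comparisons in BMDM without libraries that went against their label, were added after seeing the data.

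The genes and lists were chosen with earlier results of these data known. Named genes were the 10 genes in the comparison of cell types, those with an unadjusted p under 0.05 in the others, and for each the gene with the most alike H3K27ac coverage over 35 libraries at least 1 Mb away. The other regulators named are examples of a list of 25, chosen after their values were seen. An interval at 1 locus is not reported here.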

Additional observations from a re-analysis of the deposited data

Results flagged for a closer look

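Among 240 groups of 5 or 6 libraries (10 genes, 2 measures, 12 groups), 19 held a library whose gap to its nearest neighbour took most of the range of its group. In normally distributed values chance alone gives this in about 1 in 20 groups. Many promoter scores were 0, and groups with no spread or with fewer than 2 promoter scores above 0 could not be flagged. Hence that rate does not hold for these groups. For the scores and log2 values below the range of the other libraries of the group is given after each value. In control unstimulated BMDM replicate 3, the H3K4me3 promoter rank score of Meis1 was 6.25 (0.37 to 2.01), the H3K4me3 promoter rank score of Gfi1 was 3.93 (0.65 to 1.70), the H3K4me3 promoter rank score of Myb was 6.78 (1.15 to 2.57) and the H3K4me3 promoter rank score of Prdm16 was 1.65 (0.00 to 0.59). In control LPS+IFNg BMDM replicate 3, the H3K27ac log2 relative coverage of Hlf was -0.63 (-0.15 to 0.14) and the H3K27ac log2 relative coverage of Myb was -0.18 (0.68 to 1.16). In control unstimulated BMDM replicate 4, the H3K4me3 log2 relative coverage of Hlf was 1.29 (0.70 to 0.88) and the H3K4me3 promoter rank score of Ikzf2 was 2.77 (0.69 to 1.42). In control unstimulated BMDM replicate 4, the H3K27ac promoter rank score of Meis1 was 0.69 (0.00 to 0.10). In control HSC replicate 5, the H3K27ac promoter rank score of Hlf was 0.36 (0.00 to 0.000144). In diabetic HSC replicate 1, the H3K4me3 promoter rank score of Hlf was 1.59 (0.00 to 0.46). In control HSC replicate 4, the H3K27ac promoter rank score of Gfi1 was 1.04 (0.00 to 0.20). In control HSC replicate 4, the H3K4me3 log2 relative coverage of Gfi1b was 1.60 (2.36 to 2.74). In control HSC replicate 3, the H3K27ac promoter rank score of Mycn was 0.40 (0.00 to 0.12). In diabetic unstimulated BMDM replicate 4, the H3K27ac log2 relative coverage of Mycn was -2 (0.79 to 1.46). In control LPS+IFNg BMDM replicate 6, the H3K4me3 promoter rank score of Prdm16 was 2.30 (0.00 to 0.25). In diabetic LPS+IFNg BMDM replicate 5, the H3K4me3 promoter rank score of Prdm16 was 2.25 (0.00 to 0.43). In control unstimulated BMDM replicate 5, the H3K27ac log2 relative coverage of Prdm16 was -1.51 (0.36 to 1.47). In diabetic LPS+IFNg BMDM replicate 3, the H3K27ac log2 relative coverage of Etv6 was 2.99 (1.77 to 2.15).

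The disease difference of HSC, less that of unstimulated BMDM, had an unadjusted p under 0.05 in 4 of 40 tests of a gene, as 0.60 for the H3K27ac relative locus coverage of Gfi1b (exact permutation test, unadjusted p = 0.0181, adjusted p = 1), 2.52 for the H3K4me3 promoter rank of Meis1 (exact permutation test, unadjusted p = 0.0158, adjusted p = 1), -0.45 for the H3K4me3 relative locus coverage of Mecom (exact permutation test, unadjusted p = 0.0450, adjusted p = 0.449) and -0.68 for the H3K4me3 relative locus coverage of Mycn (exact permutation test, unadjusted p = 0.0277, adjusted p = 0.397), on the log2 scale of each measure. None passed adjustment.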

How the results depend on the processing

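Of 192 recomputed counts of called genes among the 10, 181 stayed within 1.5 times the reported count, and of 515 recomputed differences at single genes 431 kept direction and side of the threshold, 41 lost a call, 11 gained one and 32 changed sign, where no cause was tested. The reported count was 0 in every comparison of disease, stimulation or the disease difference between cell types, and for the H3K4me3 promoter rank. A 0 that stayed 0 counted as within that limit, so most of the 181 do not show stability. For HSC against unstimulated BMDM, the H3K27ac promoter rank gave 6 calls with ranks to 20000 and 1 with peaks ordered by fold enrichment. Of all genes 18.1% and 5.52% were called there. The rank gave 0 calls within control or within diabetic libraries alone, where the smallest p is limited and 0% of all genes were called. H3K27ac coverage gave 5 calls in covered kb, where 26.4% of all genes were called, and 4 in control libraries alone, where 19.3% were. H3K4me3 coverage gave 0 with the 20000 strongest peaks, where 4.46% of all genes were called. With a −log10 q of at least 5 it gave 4, where 25.5% were called. In diabetic libraries alone it gave 0, where 0% were called, and it gave 5 to 8 when single libraries were left out. H3K27ac coverage under LPS+IFNg gave 2 calls without the control libraries that went against their label, where 6.16% of all genes were called. It gave 0 to 1 when single libraries were left out, the call being that of Prdm16 without control unstimulated BMDM replicate 5.

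Differences between HSC and unstimulated BMDM that changed sign were as follows. H3K27ac coverage of Mecom was -0.0211 in covered kb and -0.0143 in diabetic libraries, and -0.0302 to 0.11 without single libraries. The H3K27ac promoter of Etv6 gave 0.0634 by fold enrichment. H3K4me3 promoters gave, by fold enrichment, -0.92 for Mecom, -0.000538 for Gfi1b, -0.60 for Myb, -0.11 for Prdm16 and 0.76 for Etv6. They gave -0.24 for Mecom with 500 bp promoters, 0.21 for Hlf, -0.33 for Mecom and -0.23 for Ikzf2 in control libraries, 0.68 for Meis1 and -0.0912 for Myb in diabetic libraries and -0.0455 for Myb without control unstimulated BMDM replicate 6. Without single libraries they ranged over -0.0126 to 0.29 for Mecom, -0.00967 to 0.0520 for Gfi1b, -0.16 to 0.44 for Myb and -0.18 to 0.20 for Ikzf2. H3K4me3 coverage gave -0.31 for Meis1, -0.32 for Hlf, -0.24 for Mycn, 0.25 for Prdm16 and -0.0917 for Ikzf2 with the 20000 strongest peaks, -0.53 for Meis1, -0.73 for Hlf, -0.59 for Mecom, -0.37 for Gfi1, -0.30 for Myb, -0.51 for Mycn and -0.39 for Ikzf2 in covered kb, and -0.11 to 0.0242 for Etv6 without single libraries. For disease, H3K4me3 coverage of Myb in unstimulated BMDM was -0.32 in covered kb, and the disease difference of HSC, less that of unstimulated BMDM, was 0.00713 for Mecom with the 20000 strongest peaks, and 0.29 for Mecom and 0.23 for Mycn in covered kb.

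Libraries of equal number deviated together in H3K27ac between diabetic unstimulated and LPS+IFNg BMDM, with correlations of 0.126 to 0.491 in 5 of 5 pairs. In the control libraries of that test 4 of 6 pairs exceeded 0.1, and for H3K4me3 5 of 6 control and 4 of 5 diabetic pairs did. Over these sets the median was 0.228 to 0.348 for equal numbers and -0.099 to -0.0686 for unequal ones. Between HSC and unstimulated BMDM the median for equal numbers was -0.103 to 0.0852. In no other pair of groups compared did every pair exceed 0.1, and the labels name no mouse, so the number was not taken as a pairing. The main tests thus treat libraries of equal number as independent. With the number as a replicate block, H3K4me3 coverage gave 4 calls between HSC and unstimulated BMDM and H3K27ac coverage 7. Of all genes 22.2% and 37.3% were called there. Mecom H3K27ac coverage gave a difference of -0.00157. H3K27ac coverage under LPS+IFNg gave 0 calls with the block, where 0% of all genes were called. It gave -0.84 at Prdm16 (exact permutation test, adjusted p = 0.478) and 0.30 at Gfi1b (adjusted p = 0.462).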
